A study of Danio rerio with 32 samples.

Results

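In livers of zebrafish larvae from an nrf2 knockout line (nrf2KO, here KO), 5 genes already stood apart from wild type (WT) without any drug, and they are followed here across every treatment and time of the study. They are cyp2p9 (ENSDARG00000022631), zgc:171470 (ENSDARG00000057844), 1 of the genes with the symbol SLC27A1 (ENSDARG00000104949), grna.2 (ENSDARG00000088641) and AGXT2 (ENSDARG00000100709). The 5 genes, out of 32519 in the count table, were picked by Ensembl identifier because KO differed from WT in the vehicle-treated livers. The vehicle values below are therefore a description, and tests are confined to the drug-treated livers, whose comparisons the choice did not use. The spread behind each p-value was estimated over all 32 libraries. The vehicle libraries used in the choice thus entered it, and the tests are not fully independent of the choice. All 5 genes had enough counts to be among the 11384 genes tested.

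RNA was sequenced from livers dissected from larvae that received acetaminophen (APAP) or dimethyl sulfoxide (DMSO, the vehicle) and were collected at 12 h or 24 h. The 8 groups were KO APAP, WT APAP, KO DMSO and WT DMSO at each time, with 4 libraries per group and 20 pooled livers per library. The labels give neither the mutated allele, the strain of either line, the larval age nor the APAP dose, so the nrf2 mutation and any other genetic difference between the KO and WT lines cannot be told apart in these data. Nothing in the labels says that the libraries of a group came from separate clutches or exposures, so p-values measure the spread between these pools, which may be technical.

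Electrophiles and oxidants release Nrf2 from its inhibitor Keap1, and Nrf2 then drives genes for glutathione synthesis and detoxification. APAP is an analgesic that, at high dose, is turned by cytochrome P450 enzymes in hepatocytes into a reactive metabolite that depletes glutathione. Among the 5 genes, cyp2p9 belongs to the CYP2 family of cytochrome P450 enzymes, which oxidise drugs and fatty acids. SLC27A1 is known in mammals as a fatty acid transport protein that takes up and activates long-chain fatty acids. AGXT2 is known in mammals as a mitochondrial aminotransferase that acts on glyoxylate, beta-aminoisobutyrate and dimethylarginines. The granulin family, to which grna.2 belongs, encodes secreted and lysosomal growth factors, and zgc:171470 is a clone name to which no role is given here.

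Total counts per library ran between 3971569 and 6298523. Genes detected per library had a median of 12096 and a minimum of 4129, in KO APAP 12 h replicate 2. Hepatocyte marker genes took 10.5% to 17.9% of counts in KO APAP, 7.69% to 14.5% in WT APAP, 5.02% to 19.7% in KO DMSO and 4.41% to 16.3% in WT DMSO libraries. At 24 h of DMSO they took 16.7% to 19.7% in KO and 10.95% to 16.3% in WT libraries, without overlap. In the other conditions KO and WT overlapped. The part of this difference in the levels of the 5 genes was not tested. Pancreas marker genes took 1.75% to 4.68% in KO APAP, 1.26% to 12.5% in WT APAP, 1.13% to 10.7% in KO DMSO and 0.870% to 8.28% in WT DMSO libraries. In such bulk samples, fewer cells of a type and less RNA per cell cannot be told apart. The transcript of NFE2L2 (ENSDARG00000042824), the symbol the table gives for a zebrafish Nrf2 gene, averaged 30.6 ± 16.4 CPM (library-scaled read counts) in KO APAP and 50.5 ± 7.25 CPM in WT APAP livers at 12 h, and 34.4 ± 4.80 against 54.2 ± 20.2 CPM at 24 h (SD, n = 4). It averaged 40.4 ± 2.60 CPM in KO DMSO against 38.7 ± 12.3 CPM in WT DMSO livers at 12 h, and 41.98 ± 9.42 against 48.9 ± 5.27 CPM at 24 h. The KO and WT libraries of this transcript overlapped in every condition except APAP at 12 h, and its log2 fold change under APAP missed the threshold at both times (-0.72, edgeR adjusted p = 0.341, and -0.66, adjusted p = 0.611). The labels do not say whether the allele changes the amount of transcript.

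Under APAP, cyp2p9, zgc:171470 and SLC27A1 were lower in KO than in WT at both times, AGXT2 was higher at both times, and grna.2 was lower at 12 h. In edgeR's quasi-likelihood test with Benjamini-Hochberg adjustment over all tested genes, 5 of the 5 genes passed an adjusted p of 0.05 at 12 h, where 2.23% of all tested genes did. The 4 lower ones stand against 0.949% of tested genes called lower, and AGXT2 against 1.28% called higher. At 24 h 4 of the 5 passed, where 1.19% of all tested genes did, 0.624% as lower and 0.571% as higher. Because the 5 genes were picked for a difference between the same KO and WT lines, these shares are not what chance alone would give for them. Among the APAP libraries, cyp2p9, zgc:171470, SLC27A1 and grna.2 met the low-count filter through their WT level. With only the KO APAP groups in the fit, the filter removed them. Their calls thus rest on the WT counts, with few in KO. In single comparisons of 4 KO with 4 WT libraries, groups without overlap were found for 8.28% of tested genes at 12 h and 10.8% at 24 h of APAP, and for 5.82% at 12 h and 10.4% at 24 h of DMSO. At 12 h the 254 genes called comprised 146 higher and 108 lower in KO. With relative log expression size factors in place of the trimmed mean of M values (TMM), the split at 12 h was 95 higher and 126 lower, and the median log2 fold change of all tested genes was -0.45, against -0.30 under TMM, a shift of -0.15.

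**Figure D1:**
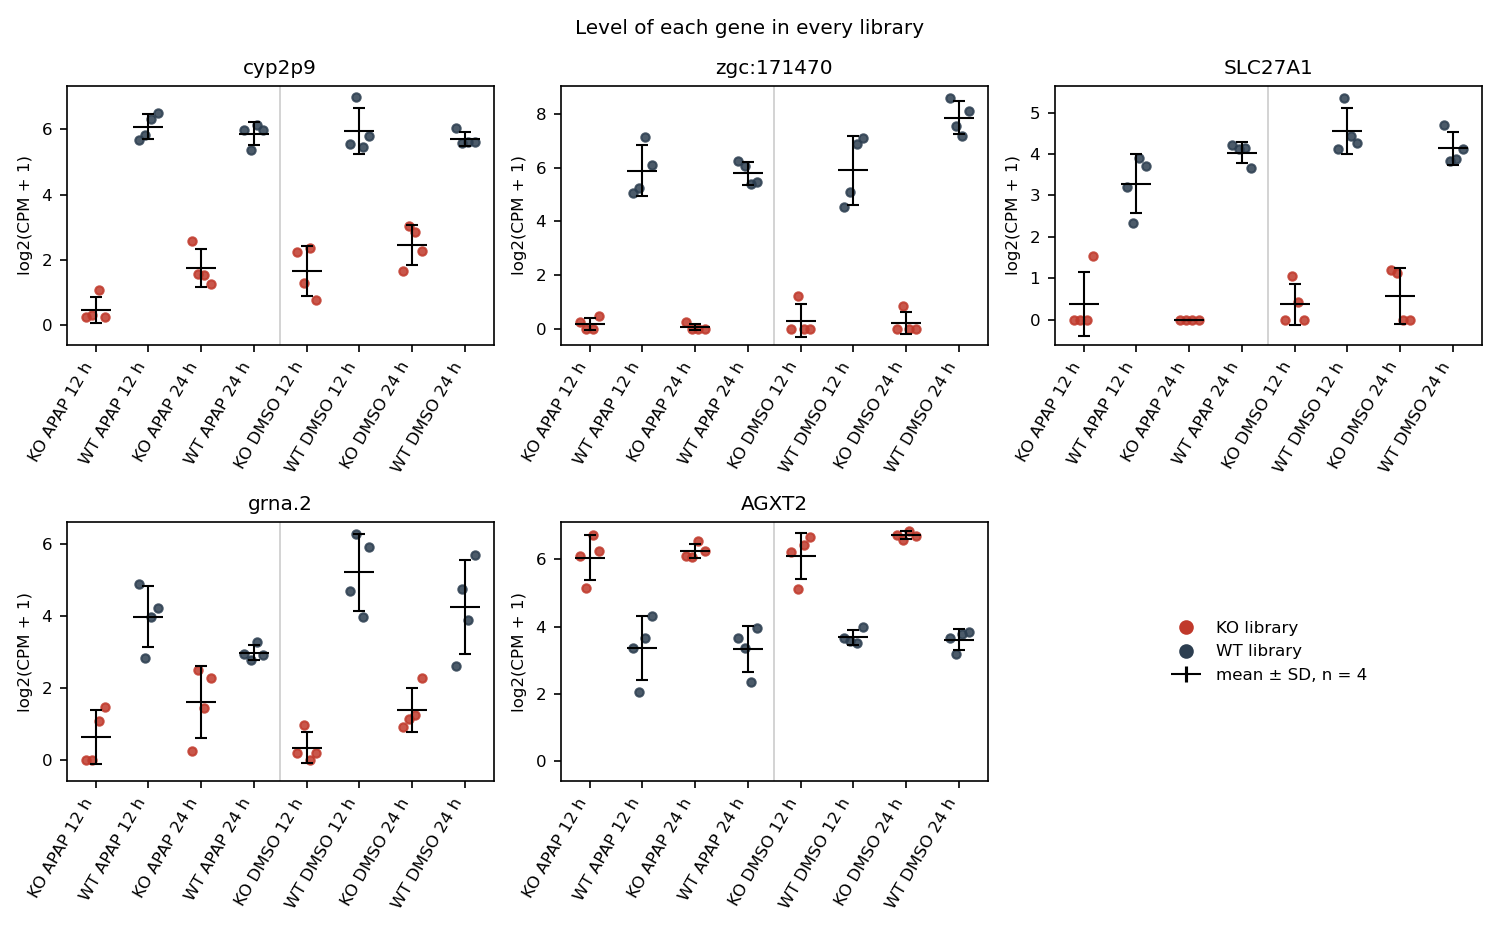
Level of each of the 5 genes in every library, as CPM after TMM scaling on a log2(CPM + 1) axis, with 4 libraries per group and KO left of WT. In each panel the 16 KO libraries lie apart from the 16 WT libraries, below them for cyp2p9, zgc:171470, SLC27A1 and grna.2 and above them for AGXT2.

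The cytochrome P450 gene cyp2p9 was low in KO livers in all 4 conditions and lowest in KO APAP livers at 12 h. At 12 h of APAP, it had 0.183, 0.244, 1.09 and 0.193 CPM in the KO libraries, against 50.03, 56.2, 79.3 and 89.0 CPM in the WT libraries. After 24 h of APAP, it had 5.02, 1.97, 1.93 and 1.42 CPM in KO, against 61.6, 40.2, 69.5 and 62.4 CPM in WT. No KO library reached the lowest WT library at either time. The log2 fold change of KO over WT was -7.28 ± 0.66 at 12 h (SE, n = 4 per group; edgeR adjusted p = 9.25e-10) and -4.47 ± 0.55 at 24 h (adjusted p = 9.80e-07). At 12 h this gene had the smallest p of all tested genes. Over the 4 libraries of a group, the 12 h value rests on 8 counts in KO against 1347 in WT, a 163-fold difference. Without KO APAP 12 h replicate 3, which holds 5 of the 8 counts, the KO over WT ratio was 0.00302 (95% counting interval 0.000621 to 0.00884), against 0.00614 with it. Without KO APAP 24 h replicate 1, the difference at 24 h was 32.9-fold, against 21.6-fold with all libraries.

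In the vehicle, cyp2p9 had 3.75, 1.43, 4.1 and 0.718 CPM in the KO libraries at 12 h, against 45.8, 125, 42.6 and 55 CPM in WT. After 24 h of DMSO it had 2.17, 7.19, 6.25 and 3.83 CPM in KO, against 64.1, 46.7, 47.4 and 47.4 CPM in WT. The groups did not overlap at either time, and the log2 fold changes were -4.75 ± 0.55 and -3.40 ± 0.52. In KO livers under APAP the mean was 0.428 ± 0.443 CPM at 12 h, against 2.50 ± 1.68 CPM in KO DMSO livers (SD, n = 4), while WT livers had 68.6 ± 18.5 CPM under APAP and 67.1 ± 38.99 CPM in DMSO. The residual KO level thus had a log2 fold change of -2.50 ± 0.63 for APAP over DMSO at 12 h and -0.89 ± 0.52 at 24 h, against 0.03 ± 0.46 and 0.19 ± 0.46 in WT. These 4 values are descriptive, since the DMSO libraries took part in the choice of the gene. All KO APAP 12 h libraries other than replicate 3 held a single cyp2p9 count each.

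Between 12 h and 24 h of APAP, 0.439% of tested genes were called in KO and 0.0527% in WT. Within APAP, cyp2p9 had a 24 h over 12 h log2 fold change of 2.58 ± 0.64 in KO livers, which missed the threshold (edgeR adjusted p = 0.0517), and of -0.23 ± 0.46 in WT livers (adjusted p = 1). cyp2p9 passed the low-count filter through its WT level, and the KO contrast rests on 49 counts at 24 h against 8 at 12 h, so the values that follow are a description. The KO value was past the threshold in the DESeq2 Wald test (2.69, adjusted p = 0.0133), with relative log expression size factors (adjusted p = 0.0442), without a filter on low counts (adjusted p = 0.0171) and without KO APAP 12 h replicate 3 (3.56, adjusted p = 0.0190). The change in the KO against WT difference between the times was 2.81 ± 0.79, with an unadjusted p of 0.000952 and an adjusted p of 0.769. No tested gene passed in that interaction test in edgeR (0%), where 593 had an unadjusted p under 0.05, and 6 passed in DESeq2.

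The clone-named gene zgc:171470 was almost without counts in KO livers and was detected in every WT library, with 173 counts or more. At 12 h of APAP, it had 0.183, 0, 0 and 0.386 CPM in the KO libraries, against 32.6, 37.4, 139 and 68.5 CPM in WT. At 24 h, it had 0.193, 0, 0 and 0 CPM in KO, against 75.7, 65.8, 40.9 and 43.7 CPM in WT. Every KO library lay far below every WT library. The KO group held 3 counts at 12 h against 1334 in WT, a KO over WT ratio of 0.00232 (95% counting interval 0.000479 to 0.00681; edgeR adjusted p = 1.05e-07). At 24 h it held 1 count against 1098, a ratio of 0.000969 (2.45e-05 to 0.00541; adjusted p = 1.69e-07). Without KO APAP 12 h replicate 4 the 12 h ratio was 0.00106 on 1 KO count (2.68e-05 to 0.00591), and without KO APAP 24 h replicate 1 the gene was at least 246-fold lower at 24 h. These intervals, like the floors used below, cover counting error only.

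Without APAP, zgc:171470 had 0, 1.31, 0 and 0 CPM in the KO libraries at 12 h, against 22.2, 33.4, 117 and 137 CPM in WT. In 24 h DMSO livers it had 0, 0.799, 0 and 0 CPM in KO, against 389, 187, 145 and 280.2 CPM in WT. All residual KO counts in the vehicle came from replicate 2 at each time, and the log2 fold changes were -7.64 ± 0.85 and -9.95 ± 0.96. Without those libraries KO held no count, and the gene was at least 464-fold lower at 12 h and at least 1005-fold lower at 24 h, taking a floor of 3 counts over the group.

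The WT level of zgc:171470 also varied among conditions. WT DMSO livers at 24 h averaged 250.4 ± 108 CPM, apart from the 3 other WT groups, which averaged 56.5 to 77.3 CPM and overlapped each other. The APAP over DMSO log2 fold change in WT was -2.15 ± 0.62 at 24 h and -0.15 ± 0.59 at 12 h, as a description. At 12 h the WT libraries spread widely in both treatments, with 32.6 to 139 CPM under APAP and 22.2 to 137 CPM in DMSO.

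The fatty acid transport gene SLC27A1 was low but detected in every WT library and without a count in 11 of the 16 KO libraries. At 12 h of APAP, it had 0, 0, 0 and 1.93 CPM in KO, against 8.28, 4.02, 13.9 and 12.1 CPM in WT. The KO libraries at 24 h of APAP had no count of it, against 17.7, 16.4, 16.6 and 11.6 CPM in WT. The highest KO value was below the lowest WT value at both times. The log2 fold change was -4.19 ± 0.96 at 12 h (edgeR adjusted p = 0.0132). At 24 h the gene was at least 95.5-fold lower in KO, with 0 counts against 305 and the same floor (edgeR adjusted p = 8.15e-05). The 95% counting interval of that KO over WT ratio was 0 to 0.0129, which reaches a smaller fold than the floor gives. All 10 KO counts at 12 h lay in replicate 4, and without that library the gene was at least 44.6-fold lower there, against 18.3-fold with it. The 12 h call was lost when only the compared groups entered the fit (adjusted p = 0.424).

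In the vehicle, SLC27A1 had 0, 1.07, 0.356 and 0 CPM in the KO libraries at 12 h, against 16.5, 39.9, 20.8 and 18.2 CPM in WT. In 24 h DMSO livers it had 1.301, 1.198, 0 and 0 CPM in KO, against 25.02, 13.2, 13.8 and 16.4 CPM in WT. The groups did not overlap, with log2 fold changes of -5.93 ± 1.01 and -4.64 ± 0.96. Without KO DMSO 12 h replicate 2, the 12 h ratio of KO over WT was 0.00430 on 2 KO counts (95% counting interval 0.000520 to 0.0156), against 0.0167 with it. In WT livers the APAP over DMSO log2 fold change was -1.31 ± 0.79 at 12 h and -0.13 ± 0.78 at 24 h, as a description.

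Residual counts of zgc:171470 and SLC27A1 fell partly in the same KO libraries. Each gene was counted in 5 of the 16 KO libraries, 3 libraries held both and 9 held neither. The 3 shared libraries were KO APAP 12 h replicate 4, KO DMSO 12 h replicate 2 and KO DMSO 24 h replicate 2. Over all 16 KO libraries, zgc:171470 had 19 counts against 9550 in the 16 WT libraries, and SLC27A1 had 33 against 1517. By contrast, cyp2p9 was counted in every KO library, with 209 counts against 5428 in WT.

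The granulin gene grna.2 had lower values in KO than in WT libraries in all 4 conditions. Of the 2 APAP comparisons, it passed the test at 12 h and not at 24 h. At 12 h of APAP, it had 0, 0, 1.09 and 1.74 CPM in the KO libraries, against 28.6, 6.13, 14.6 and 17.5 CPM in WT. At 24 h, it had 0.193, 4.595, 1.69 and 3.78 CPM in KO, against 6.62, 5.80, 8.60 and 6.57 CPM in WT. The groups did not overlap at either time, but at 24 h the highest KO library was close to the lowest WT library. The log2 fold change was -4.50 ± 0.90 at 12 h (edgeR adjusted p = 0.00373) and -1.43 ± 0.78 at 24 h, which missed the threshold (adjusted p = 0.576). The 12 h call was lost when only the compared groups entered the fit (adjusted p = 0.226), and without KO APAP 12 h replicate 4 the 12 h difference was 49.3-fold, against 24.1-fold with all libraries. The difference between the times in KO against WT was 3.07 ± 1.15, with an unadjusted p of 0.0111 and an adjusted p of 0.842, so it did not pass. That value is a description, as it rests on 14 KO counts at 12 h and 45 at 24 h. Among the APAP libraries, the gene met the low-count filter through its WT level.

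In the vehicle, grna.2 had 0.129, 0.954, 0 and 0.144 CPM in the KO libraries at 12 h, against 24.6, 75.4, 14.6 and 59.0 CPM in WT. In 24 h DMSO livers it had 0.868, 1.198, 1.36 and 3.83 CPM in KO, against 5.12, 25.9, 13.8 and 50.2 CPM in WT. The log2 fold changes were -6.94 ± 0.99 and -3.72 ± 0.84, and WT libraries spread over 5.12 to 75.4 CPM. Without KO DMSO 12 h replicate 2, the 12 h ratio of KO over WT was 0.00236 on 2 KO counts (95% counting interval 0.000286 to 0.00856), against 0.00837 with all libraries. The 24 h difference was 20.8-fold without KO DMSO 24 h replicate 4 and 8.58-fold without WT DMSO 24 h replicate 4, against 13.7-fold with all libraries. The WT means were lower under APAP than in DMSO. WT averaged 16.7 ± 9.27 CPM under APAP and 43.4 ± 28.6 CPM in DMSO at 12 h, and 6.90 ± 1.19 against 23.8 ± 19.6 CPM at 24 h (SD, n = 4). As a description, the APAP over DMSO log2 fold changes in WT were -1.37 ± 0.74 and -1.78 ± 0.76, and in KO they were 1.07 ± 0.98 and 0.51 ± 0.82.

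Macrophages express granulins in vertebrates, so macrophage markers are given beside grna.2. At 24 h of APAP these markers took 0.221% to 0.466% of counts in KO and 0.0810% to 0.180% in WT libraries, without overlap. At 12 h they took 0.0835% to 0.125% in KO and 0.0761% to 0.178% in WT. Of the 27 macrophage identifiers matched, 9 had enough counts to be tested, and 4 (3 with the symbol MFAP4 and 1 with MPEG1) had no count in any library. Over all treatments and times, most of the sum was apoeb, at 1261 CPM over KO and 843 CPM over WT libraries. Other tested markers went both ways, as means over all KO or WT libraries. MPEG1 (ENSDARG00000055290), ptprc and havcr1 had 0.701, 0.131 and 1.83 CPM in KO against 1.27, 0.635 and 2.50 CPM in WT. Of the MFAP4 identifiers, ENSDARG00000090557 had 34.1 against 4.23 CPM, ENSDARG00000088745 17.8 against 18.4 CPM and ENSDARG00000090783 0.718 against 1.07 CPM. Both marco (3.94 against 1.39 CPM) and ccl34b.1 (1.80 against 0.997 CPM) were higher in KO. These means cover all treatments and times, so they do not show which marker made the gap at 24 h of APAP. At that time 1 of the 9 tested markers was called, where 1.19% of all tested genes were. It was MFAP4 (ENSDARG00000090557), with a log2 fold change of 4.59 ± 0.91 (edgeR adjusted p = 0.00289). The part of these markers in the grna.2 values was not tested. The antisense gene grnas, which overlaps grna.2 in the RefSeq annotation of GRCz12tu, had no count in any library.

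AGXT2, alone among the 5 genes, was higher in KO, with log2 fold changes between 2.61 and 3.19 over the 4 conditions. At 12 h of APAP, it had 67.0, 34.6, 105 and 75.3 CPM in the KO libraries, against 9.30, 3.17, 11.8 and 19.0 CPM in WT. At 24 h, it had 67.4, 67.0, 92.9 and 75.4 CPM in KO, against 11.6, 9.41, 4.11 and 14.4 CPM in WT. Every KO library was above every WT library. The log2 fold change was 2.70 ± 0.44 at 12 h (edgeR adjusted p = 0.000222) and 2.94 ± 0.44 at 24 h (adjusted p = 4.95e-05), and the 12 h call was lost when only the compared groups entered the fit (adjusted p = 0.0677). The summed counts were 6.65 times as high in KO as in WT at 12 h (95% counting interval 5.75 to 7.72) and 7.86 times as high at 24 h (6.73 to 9.22).

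In the vehicle, AGXT2 had 73.6, 33.5, 84.9 and 100.4 CPM in the KO libraries at 12 h, against 11.6, 10.8, 10.4 and 15.04 CPM in WT. In 24 h DMSO livers it had 106, 95.04, 115 and 102 CPM in KO, against 11.8, 8.02, 12.6 and 13.4 CPM in WT. The log2 fold changes were 2.61 ± 0.43 and 3.19 ± 0.44, and both groups of each pair stayed apart. The time difference under APAP was 0.10 ± 0.41 in KO (adjusted p = 0.957) and -0.13 ± 0.42 in WT (adjusted p = 1), and the change of the genotype difference between the times was 0.24 ± 0.58. The APAP over DMSO log2 fold changes, as a description, lay between -0.47 and -0.05 over both genotypes and times. KO DMSO livers at 24 h had the highest mean, with 105 ± 8.30 CPM. They did not overlap the group next in mean, KO APAP at 24 h with 75.7 ± 12.1 CPM, but overlapped the KO groups of both treatments at 12 h.

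**Figure D2:**
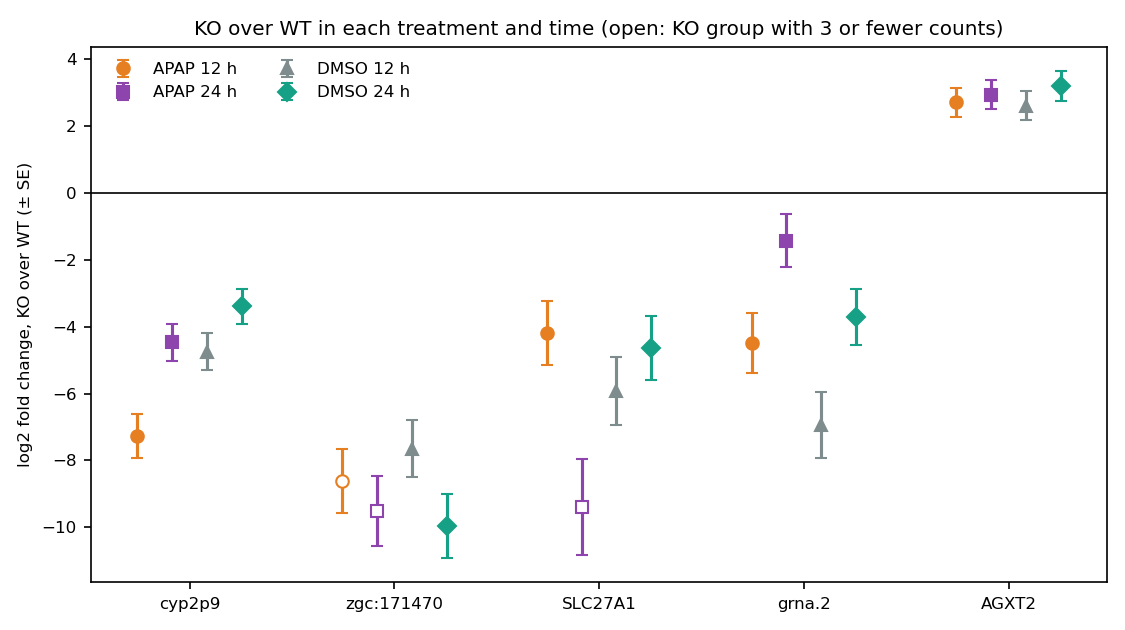
Log2 fold change of KO over WT for each of the 5 genes in the 4 conditions, with bars of 1 SE, n = 4 libraries per group. AGXT2 lies between 2.61 and 3.19 throughout, whereas grna.2 lies between -6.94 in DMSO at 12 h and -1.43 under APAP at 24 h. Open markers are KO groups with 3 counts or fewer, whose fitted fold depends on the prior count.

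Ordered by mean level, the groups split by genotype first for all 5 genes. The lowest WT group never overlapped the highest KO group for cyp2p9, zgc:171470, SLC27A1 and grna.2, nor the lowest KO group the highest WT group for AGXT2. Neighbouring WT groups overlapped in every gene apart from the WT DMSO 24 h group of zgc:171470, and KO groups next to each other in mean overlapped apart from KO DMSO 24 h and KO APAP 24 h of AGXT2. Over all 16 KO and 16 WT libraries, cyp2p9 spanned 0.183 to 7.19 CPM (median 1.95) in KO against 40.2 to 125 CPM (median 55.6) in WT. AGXT2 spanned 33.5 to 115 CPM (median 80.1) in KO against 3.17 to 19.0 CPM (median 11.6) in WT.

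Separation of all libraries by genotype was rare in the table. Among the APAP libraries, 5 of the 5 genes had no overlap between the 8 KO and 8 WT libraries, as had 158 of all tested genes (1.39%). By direction, 0.72% of tested genes lay lower in KO without overlap and 0.668% higher. The 5 genes were picked for a KO against WT difference in vehicle-treated livers of the same lines. Their separation under APAP was therefore not independent of the choice, and these shares are given as a description. Over all 32 libraries, 11 tested genes had no overlap (0.0966%), namely the 5 genes and 6 others, and that larger count includes the vehicle libraries on which the 5 were chosen. The 6 others were named after their values were seen. Of these, si:dkeyp-73d8.6 averaged 0.269 CPM in KO and 43.4 CPM in WT, RANBP2 averaged 0.371 CPM in KO and 4.92 CPM in WT, and atp5mea averaged 57.4 CPM in KO and 208 CPM in WT. The genes ndufc1, tomm6 and cox7b, together with atp5mea, encode parts of mitochondrial protein complexes, and ndufc1, tomm6 and cox7b were higher in KO. As an example, ndufc1 averaged 153 CPM in KO and 50.8 CPM in WT.

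**Figure D3:**
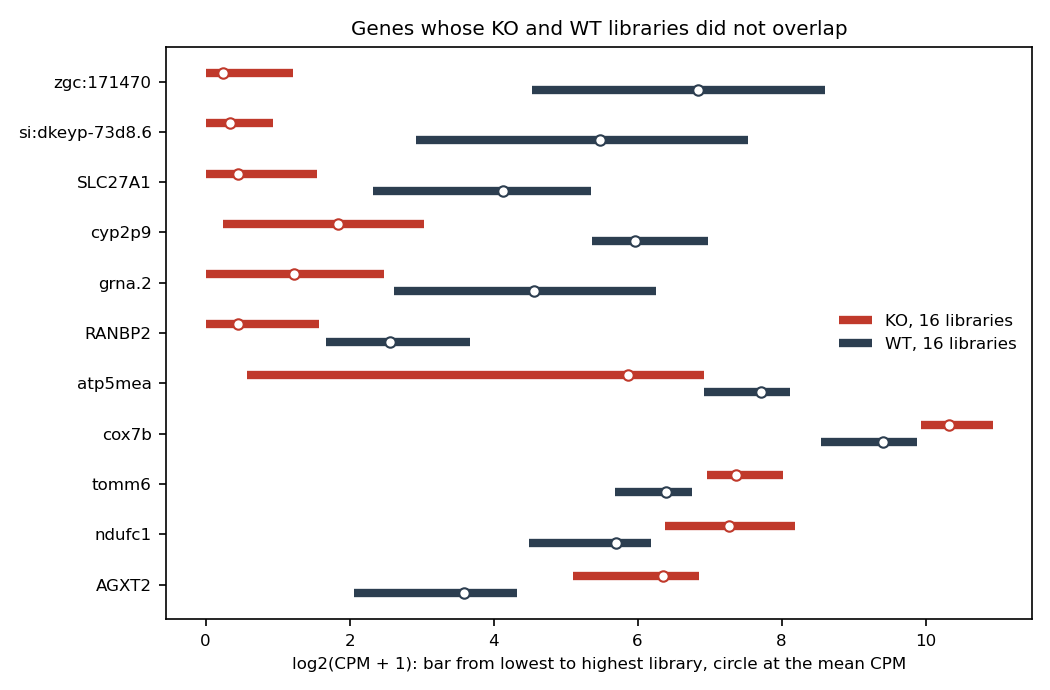
Range (bar) and mean (point) of CPM over the 16 KO and the 16 WT libraries, KO above WT, for each gene whose KO and WT libraries do not overlap, on a log2(CPM + 1) axis. The 11 genes comprise the 5 described here and 6 others, and 7 of the 11 are lower in KO.

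In the rule-defining contrast, 10 of all tested genes (0.0878%) were called in DMSO in the same direction at both times, and the 5 genes are among them by choice. At single times 28 genes (0.246%) were called at 12 h and 32 (0.281%) at 24 h of DMSO. Under APAP 72 genes (0.632%) were called in 1 direction at both times, among them cyp2p9, zgc:171470, SLC27A1 and AGXT2. In all 4 conditions 6 genes (0.0527%) were called: those 4, si:dkeyp-73d8.6 and the unnamed ENSDARG00000109678. The last gene averaged 9.86 CPM in KO and 0.227 CPM in WT libraries.

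**Figure D4:**
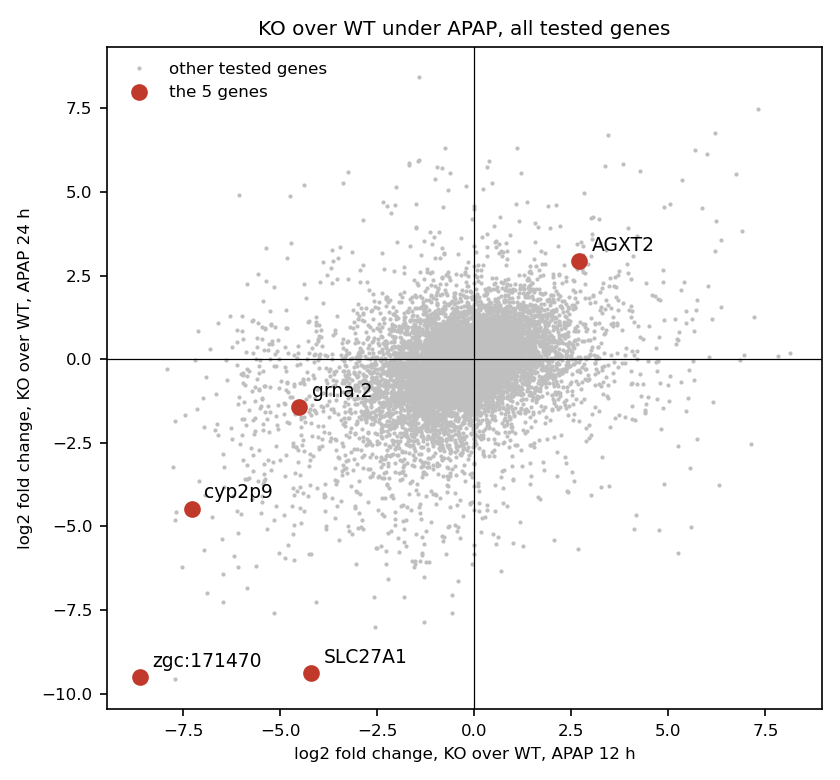
Log2 fold change of KO over WT under APAP at 12 h (horizontal) and at 24 h (vertical) for all tested genes, with the 5 genes marked. AGXT2 lies in the upper right and the other 4 in the lower left, with grna.2 nearest to 0 on the vertical axis at -1.43; fitted folds of zgc:171470 and SLC27A1 rest on few or no KO counts.

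Of 13 other tested genes of the same families, 1 was called under APAP at 12 h and 0 at 24 h in edgeR. Among all tested genes 2.23% and 1.19% were called, and 13 genes are too few to set against these shares. Of these 13, DESeq2 called 2 and 0, where it called 754 and 295 of all 11384 tested genes. An unadjusted edgeR p under 0.05 was found for 3 and 4 of the 13, and for 1921 and 1152 of all tested genes. Of 4 other cyp2p genes tested, 0 were called under APAP at either time in edgeR or DESeq2, with 0 at an unadjusted p under 0.05 at 12 h and 1 at 24 h. Their log2 fold changes were -0.51 ± 0.63 and -1.0 ± 0.63 at 12 h and 24 h for cyp2p6, 1.27 ± 1.02 and -0.19 ± 1.02 for cyp2p7, and -0.02 ± 1.01 and 0.40 ± 1.02 for cyp2p8. cyp2p10, with 115 counts over all libraries, had -1.76 ± 1.72 and -5.59 ± 2.06 (edgeR adjusted p = 0.657 and 0.253). At 24 h of APAP it had 0 counts in KO and 21 in WT, so that fitted fold depends on the prior count. Its log2 fold changes in DMSO were -0.77 at 12 h and -3.33 at 24 h. Whether reads of near-identical cyp2p copies were left out or assigned to another copy in mapping and counting cannot be seen in these data.

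Of the granulins, grna.1 had log2 fold changes of -0.89 ± 0.63 and 0.18 ± 0.64 at 12 h and 24 h (edgeR adjusted p = 0.509 and 0.976), and grnb had -2.23 ± 0.82 and 0.29 ± 0.78 (adjusted p = 0.136 and 0.967). Neither was called in edgeR at either time, with 1 of these 2 genes at an unadjusted p under 0.05 at 12 h and called in DESeq2. grna was not tested, with 113 counts in all.

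Of the 2 AGXT genes, which encode alanine-glyoxylate aminotransferases, 1 passed the test under APAP, at 12 h. AGXT (ENSDARG00000018478) had 1.32 ± 0.33 at 12 h (edgeR adjusted p = 0.0250) and 0.97 ± 0.33 at 24 h (adjusted p = 0.185). The copy ENSDARG00000052099 had 0.96 ± 0.38 and 1.21 ± 0.38 (adjusted p = 0.169 and 0.136). In DMSO the values were 0.70 ± 0.33 and -0.05 ± 0.33 at 12 h and 24 h for AGXT (ENSDARG00000018478), and 0.16 ± 0.38 and 0.79 ± 0.38 for ENSDARG00000052099.

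The other gene with the symbol SLC27A1 (ENSDARG00000006240) averaged 2.69 ± 1.88 CPM in KO and 6.06 ± 1.46 CPM in WT livers at 12 h of APAP, and 3.76 ± 1.77 against 4.35 ± 1.19 CPM at 24 h (SD, n = 4). Its log2 fold changes were -1.16 ± 0.73 and -0.21 ± 0.73 (edgeR adjusted p = 0.444 and 0.976). Which of slc27a1a and slc27a1b either identifier is cannot be read from the table. Of 5 other slc27a genes tested, 0 were called in edgeR or DESeq2, with 0 and 1 at an unadjusted p under 0.05 at the 2 times.

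**Figure D5:**
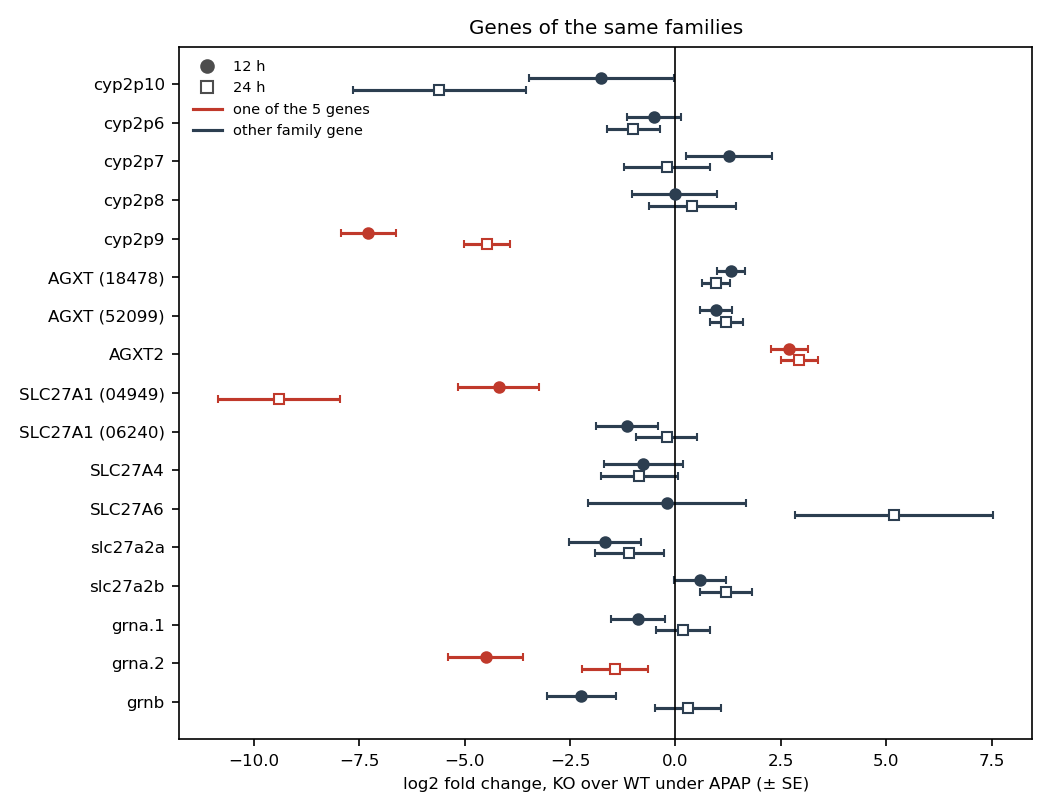
Log2 fold change of KO over WT under APAP at 12 h and 24 h for the 4 genes with family members tested and those family members, with bars of 1 SE, n = 4 libraries per group. cyp2p9 and SLC27A1 (ENSDARG00000104949) lie below the other members at 12 h, and AGXT2 lies above AGXT at both times; folds of genes with an empty group depend on the prior count.

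Neighbouring genes were listed by taking gene order from the RefSeq annotation of GRCz12tu, which is not the build of the files. Of 11384 tested genes, 8815 could be placed by symbol. Of the 5 genes, 4 could be placed, on 4 different chromosomes, and none of these 4 chromosomes was that of nfe2l2a, which the RefSeq table gives for NFE2L2. SLC27A1 could not be placed, because 2 identifiers share the symbol and the table lists 2 copies. Of these copies, slc27a1b is on the chromosome of zgc:171470, with 76 protein-coding genes starting between them. Whether ENSDARG00000104949 is that copy is not known, so linkage of SLC27A1 with zgc:171470 was not tested. Of the 40 nearest tested genes, 5 on each side, 1 was called at 12 h (DESeq2 called 3) and 0 at 24 h (DESeq2 called 0), with 6 at an unadjusted p under 0.05 at each time. With 2.23% and 1.19% of all tested genes called, these counts are near the share of all genes. An unadjusted edgeR p under 0.05 was found for 1921 of the 11384 tested genes at 12 h and 1152 at 24 h. The called neighbour was PPAT, an enzyme of purine synthesis near cyp2p9, at 2.14 ± 0.58 (edgeR adjusted p = 0.0393). mfap4.8, the third tested gene after zgc:171470, had -6.93 ± 2.1 at 12 h (edgeR adjusted p = 0.0752) and -4.06 ± 1.79 at 24 h of APAP (adjusted p = 0.413). In DMSO it had -5.62 at 12 h and -4.17 at 24 h. The first tested gene after cyp2p9 was cyp2p10, whose values are given above.

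Around nfe2l2a, 0 of the 10 nearest tested genes were called under APAP in edgeR at either time, with 3 and 1 at an unadjusted p under 0.05 and 1 and 0 called in DESeq2, and this check was added after the values were seen. DBI, a member of this neighbourhood that encodes an acyl-CoA binding protein, was called in DMSO at both times with log2 fold changes of 1.34 and 1.32, and had 0.40 and 0.41 under APAP.

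The pathways of the 5 genes were read from lists that leave out the 5 themselves. Of 31 other CYP2 genes tested, 3 were higher and 5 lower in KO at 12 h of APAP, and 0 were higher and 2 lower at 24 h. Among all tested genes 1.28% were called higher and 0.949% lower at 12 h, and 0.571% and 0.624% at 24 h. Their median log2 fold changes were -0.51 and -0.57, against -0.30 and -0.11 for all tested genes. cyp2ad2 was lower in KO than in WT at both times (-2.01 ± 0.43, edgeR adjusted p = 0.00745, and -2.62 ± 0.44, adjusted p = 0.000278), as was cyp2n13 (-2.0 ± 0.41, adjusted p = 0.00439, and -1.87 ± 0.41, adjusted p = 0.00840). CYP2R1, a vitamin D 25-hydroxylase in mammals, was lower in KO at 12 h (-4.0 ± 0.82, edgeR adjusted p = 0.00481) and had -2.63 ± 0.78 at 24 h (adjusted p = 0.0961). In DMSO, cyp2ad2 had log2 fold changes of 0.06 and -0.26 at 12 h and 24 h, and cyp2n13 had 0.64 and -0.24.

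Of 27 other genes of fatty acid transport and activation, 0 were called at 12 h in edgeR or DESeq2, with 3 at an unadjusted p under 0.05, and 1 was lower at 24 h. That gene was acsl1b, a long-chain acyl-CoA synthetase (-2.96 ± 0.78, edgeR adjusted p = 0.0444). Of 22 other genes of glyoxylate, beta-aminoisobutyrate and dimethylarginine metabolism, 1 was higher at 12 h (AGXT) and 1 was higher and 1 lower at 24 h. DESeq2 called 2 at each time, with 4 and 5 at an unadjusted p under 0.05. Of all 11384 tested genes, 2.23% and 1.19% were called in edgeR at the 2 times, and 1921 and 1152 had an unadjusted p under 0.05. At 24 h of APAP HAO1, the hepatic glycolate oxidase, was higher in KO than in WT (1.32 ± 0.28, edgeR adjusted p = 0.00678). ABAT, an aminotransferase that degrades GABA, was lower (-1.53 ± 0.38, adjusted p = 0.0270). Of 19 other granulin and lysosomal partner genes, 0 were called at either time in edgeR, with 4 and 0 at an unadjusted p under 0.05 and 1 and 0 called in DESeq2.

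The Nrf2 target list, for comparison, had 0 higher and 9 lower of 33 tested genes at 12 h and 0 higher and 13 lower at 24 h, where 0.949% and 0.624% of all tested genes were called lower, with median log2 fold changes of -1.04 and -1.24. prdx1, a peroxiredoxin that reduces peroxides, had -2.25 ± 0.37 at 12 h and -2.87 ± 0.38 at 24 h under APAP (edgeR adjusted p = 0.000241 and 3.40e-06), and -0.31 and -1.76 in DMSO. Of 131 tested genes on 7 marker lists, of hepatocytes and of other cells or tissues, 0 were called at 12 h in edgeR (17 at an unadjusted p under 0.05, 2 in DESeq2). At 24 h 3 were called (18 at an unadjusted p under 0.05, 5 in DESeq2). Of all 11384 tested genes, 2.23% and 1.19% were called at the 2 times, and 1921 and 1152 had an unadjusted p under 0.05. The 3 marker genes called at 24 h were apoa1b (1.59 ± 0.41, edgeR adjusted p = 0.0346), MFAP4 (ENSDARG00000090557, 4.59 ± 0.91, adjusted p = 0.00289) and ANPEP, an intestinal peptidase (-7.86 ± 2.06, adjusted p = 0.0472). The other tested macrophage markers with the symbol MFAP4, ENSDARG00000088745 and ENSDARG00000090783, were not called. They averaged 17.8 and 0.718 CPM over KO against 18.4 and 1.07 CPM over WT libraries.

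Likeness between genes was measured by Pearson's r of log2(CPM + 1) over the 32 libraries, which is set mainly by the genotype split and is given as a description. By the rule used, genes with a placeholder symbol or none were left out of these rankings. Among genes with other symbols, those most like cyp2p9 were SLC27A1 (r = 0.91, Spearman's rho = 0.78), c3b.2 (0.85, rho = 0.76) and RANBP2 (0.85, rho = 0.67). For zgc:171470 they were SLC27A1 (0.94), cyp2p9 (0.91) and RANBP2 (0.87), and for SLC27A1 they were cyp2p9, c3b.2 (0.87) and RANBP2 (0.87). Within the 16 WT libraries, r between cyp2p9 and SLC27A1 was 0.32 and between zgc:171470 and cyp2p9 it was -0.20. Among genes with other symbols, those most like grna.2 were nt5c2b (0.84 over all libraries, 0.56 within WT and 0.51 within KO), SLC27A1 (0.84) and cyp2p9 (0.82). For AGXT2 they were ATP5MC3 (0.83, with 0.69 within WT and 0.77 within KO), crb3a (0.83) and GPR39 (0.83). Of the genes left out by that rule, zgc:171470 had r = 0.94 with SLC27A1 and 0.91 with cyp2p9, si:dkeyp-73d8.6 had 0.91 with each of cyp2p9 and SLC27A1 and 0.946 with zgc:171470, and ENSDARG00000109678 had 0.93 with AGXT2.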

How the data were processed

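RNA was sequenced from 32 libraries of zebrafish larval liver, each from 20 pooled livers, with RNA extracted in TRIzol and cleaned on a Zymo column per the labels. The deposited values are unnormalized whole-number read counts for each Ensembl gene, which the authors made with bcl2fastq, Trim Galore, HISAT2 and HTSeq on GRCz11, per the submitters' processing notes. Versions, annotation release and strand setting are not given in the sources used here, so reads of overlapping or antisense genes may not be told apart. Groups come from the titles.

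Genes with enough counts were kept with filterByExpr (11384 of 32519), scaled with TMM factors (trimmed mean of M values), and tested in edgeR 4.0.16 (R 4.3.3) with quasi-likelihood F-tests, two-sided, in 1 fit of all 32 libraries with a mean per group (24 residual and 16.7 prior degrees of freedom, common biological coefficient of variation 0.743). A gene was called when its Benjamini-Hochberg adjusted p was below 0.05. The SE was computed as |log2 fold change| divided by sqrt(F). CPM (counts scaled to library size) follow TMM scaling, and likeness used a pseudocount of 1. Folds from summed counts, floors of 3 counts and 95% exact binomial counting intervals use the counts summed over a group and TMM-scaled library sizes. A fold given as at least a value sets an empty KO group to that floor. The 95% counting intervals of these groups reach smaller folds. The procedure was run on simulated counts, with changes smaller than the folds of zgc:171470 and only in genes above a minimum mean level. Its outcome is not reported here, and it is not a check of the near-empty KO groups. No pair of libraries within a group was a copy (lowest chi-square per degree of freedom 15.8).

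The 5 genes, the gene lists and the tests were chosen with earlier results of these data known. Named genes are the 5, the 3 most alike genes with a symbol that is not a placeholder, family members by symbol, the 5 tested neighbours on each side, up to 3 called genes of each list, and both Nrf2 copies. Of the genes this rule names, 1 is not reported here. Gene order and names were taken from RefSeq's GRCz12tu table, whose coordinates are not printed because the files use GRCz11. Alternatives were DESeq2 1.42.0, relative log expression size factors, no filter, only the compared groups, the replicate block, leaving out the 3 libraries with the fewest genes, and each library in turn. nfe2l2b, the other Nrf2 copy, averaged 1.61 to 5.57 CPM over the 8 groups.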

Additional observations from a re-analysis of the deposited data

Results flagged for a closer look

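Among the 39 groups of 4 libraries examined for the 5 genes, 10 held a library whose gap to the nearest of the others, relative to the group's range, exceeded Dixon's 95% critical value for groups of 4. Chance gives about 1 such group in 20 for continuous values, which does not apply to 4 of the 10, where the other 3 libraries have no count and the ratio is 1 by construction. KO APAP 24 h replicate 1 and KO DMSO 12 h replicate 2 each appear for 2 genes. cyp2p9 had 1.09 CPM in KO APAP 12 h replicate 3, where the other libraries had 0.183 to 0.244 CPM. It had 5.02 CPM in KO APAP 24 h replicate 1, where the others had 1.42 to 1.97 CPM.

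In WT livers without APAP, cyp2p9 had 125 CPM in DMSO 12 h replicate 2, where the others had 42.6 to 55 CPM, and 64.1 CPM in DMSO 24 h replicate 1, where the others had 46.7 to 47.4 CPM. zgc:171470 had 0.193 CPM in KO APAP 24 h replicate 1, 1.31 CPM in KO DMSO 12 h replicate 2 and 0.799 CPM in KO DMSO 24 h replicate 2, with no count in the other libraries of those groups. SLC27A1 had 1.93 CPM in KO APAP 12 h replicate 4 and none in the other libraries of that group. grna.2 had 0.954 CPM in KO DMSO 12 h replicate 2, where the others had 0 to 0.144 CPM, and 3.83 CPM in KO DMSO 24 h replicate 4, where the others had 0.868 to 1.36 CPM. No genotype difference of the 5 genes changed between the times by a test that passed its threshold.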

How the results depend on the processing

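At 12 h of APAP 254 genes were called, against 32 with only the compared groups in the fit, 754 in DESeq2 (285 higher, 469 lower) and 101 to 273 when each library was left out, with 112, 128 and 101 without WT APAP 12 h replicates 1, 2 and 3. At 24 h 136 genes were called, against 324 with only the compared groups, 443 without the 3 libraries with the fewest genes, 295 in DESeq2 (110 higher, 185 lower) and 76 to 106 with each library left out. The fewest at 24 h came without KO APAP 24 h replicates 3 (76) and 4 (83) and WT APAP 24 h replicate 4 (86). The cause was not tested. With only the compared groups in the fit, 3 calls at 12 h of APAP were lost in edgeR: SLC27A1 (-4.22, adjusted p = 0.424), grna.2 (-4.52, adjusted p = 0.226) and AGXT2 (2.68, adjusted p = 0.0677). The 24 h over 12 h change of cyp2p9 in KO is a description only, since the gene passed the low-count filter through its WT level. Its log2 fold change was 2.61 with relative log expression size factors, 2.596 without a filter and 2.69 in DESeq2. With each library left out it was 2.05 to 3.56. Those 3 settings and 1 of the fits that left out a library put it past the threshold, which does not count as a test that passed.

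When each library was left out, the descriptive DMSO log2 fold changes spanned -11.7 to -7.20 for zgc:171470, -7.56 to -5.52 for SLC27A1 and -8.50 to -6.54 for grna.2 at 12 h, and -13.4 to -9.54 for zgc:171470 at 24 h, each lowest without replicate 2 of the KO group. Fitted folds of a group left without counts depend on the prior count. No called value changed sign, and the calls of cyp2p9 and zgc:171470 under APAP at both times, and those of SLC27A1 and AGXT2 at 24 h, were kept under every alternative run. Over all alternatives, 379 tests kept their side of the threshold, 4 gained and 3 lost it.

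The replicate numbers are shared between groups, and the labels do not tie them to a shared batch or animal. Correlations of the deviations of same-numbered KO and WT libraries were 0.0539 to 0.130 in APAP 12 h, all positive, -0.103 to 0.175 in APAP 24 h, -0.167 to 0.283 in DMSO 12 h and -0.191 to -0.00195 in DMSO 24 h. Not every pair exceeded 0.1 in any condition, so the numbers were not taken to pair the libraries. With the replicate block 170 genes were called at 12 h (90 higher, 80 lower) and 128 at 24 h (62 higher, 66 lower). KO libraries correlated best with their own number in 3, 2, 3 and 0 of 4 cases in APAP 12 h, APAP 24 h, DMSO 12 h and DMSO 24 h, a hint from the data only. Depth limits the residual KO levels: 1 to 3 counts in a group leave wide counting intervals, and with no count only a lower bound on the fold can be given. With only the KO APAP groups in the fit, the low-count filter removed cyp2p9, zgc:171470, SLC27A1 and grna.2, so that alternative gives no time difference for them in KO.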
